A study of Mus musculus with 6 samples.

Results

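The genes described here are those of the folding and quality-control machinery of the endoplasmic reticulum (ER): its chaperones, disulfide isomerases, the sensors and effectors of the unfolded protein response (UPR), and the factors of ER-associated degradation (ERAD). They were taken by gene name from a list of 42 symbols. All 42 were in the deposited table of 14777 genes and all 42 passed the filter on low counts, so none is left out of what follows. The study profiled polyadenylated RNA of regulatory T cells (Treg) that had been induced from naive CD4 T cells. The mouse strain was C57BL/6. In 3 libraries the genotype is given as Foxp3 exon 2 deletion (FOXP3 ΔE2 in the labels, written dE2 here), and in 3 it is FOXP3 FL, the full-length form. FOXP3 directs the Treg programme as a transcription factor. Cells of both genotypes were cultured for 3 days on coated anti-CD3 (1 µg/ml) with anti-CD28 (1 µg/ml), human TGFβ (5 ng/ml) and human IL-2 (20 ng/ml), and the labels put FOXP3-positive cells at over 90%. The labels give no age or sex for the mice, and nothing in them ties a replicate to an animal or culture of its own. The p-values therefore cover only the spread among these 6 libraries, which may be technical.

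Proteins bound for the cell surface or for secretion fold in the ER lumen, where the Hsp70 chaperone BiP (Hspa5), the Hsp90 chaperone GRP94 (Hsp90b1), lectin chaperones and disulfide isomerases act on them. When unfolded protein builds up, 3 membrane sensors respond: IRE1 (Ern1) splices the RNA of the transcription factor XBP1, ATF6 is cut to release a transcription factor, and PERK (Eif2ak3) phosphorylates a translation factor and raises ATF4. Proteins that fail to fold are sent back to the cytosol through the SEL1L and HRD1 (Syvn1) ligase complex and its partners. Activated T cells enlarge this machinery as they grow and begin to make receptors and cytokines.

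A classical control element of genes induced by ER stress is the ER stress response element (ERSE), in which the letters CCAAT and CCACG stand 9 bases apart. The CCACG end is the part recognised by ATF6, and the CCAAT end is bound by the factor NF-Y. Of the 42 genes, 35 matched an entry in the RefSeq promoter table (GRCm38.p6, the assembly behind the mm10 build of the files); Hyou1, Manf, Erp29, Ero1lb, Atf6, Derl1 and Tmbim6 did not. In the 250 bases before the gene start, 9 of the 35 genes (25.7%) held at least 1 ERSE on either strand, against 35 of 27025 genes (0.13%) in the whole promoter table. A second form, ERSE-II, with ATTGG and CCACG 1 base apart, stood in Herpud1 and in 10 of the 27025 genes. The letters TGACGTG, the core of the UPR element, stood in 3 of the 35 genes (Hspa5, Txndc5 and Txndc11) and in 499 of the 27025 (1.85%). They do not overlap an ERSE in these promoters. The ERSE and ERSE-II are shown to mark which matched genes held an exact copy of these letters in the 250 bases. Inexact or more distant elements were not searched for. Each is printed 5′ to 3′ in the direction of the element with 10 bases on either side, and capitals mark the paired letters.
Hspa5 ERSE: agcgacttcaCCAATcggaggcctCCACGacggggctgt
Pdia6 ERSE: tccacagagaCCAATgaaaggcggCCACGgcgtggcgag
Calr ERSE: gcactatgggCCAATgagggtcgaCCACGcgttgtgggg
Hsp90b1 ERSE with the gene: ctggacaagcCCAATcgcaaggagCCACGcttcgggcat
Hsp90b1 ERSE against the gene: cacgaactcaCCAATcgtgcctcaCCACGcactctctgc
Creld2 ERSE: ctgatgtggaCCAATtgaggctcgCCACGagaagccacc
Canx ERSE: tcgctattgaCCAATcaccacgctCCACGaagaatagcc
Herpud1 ERSE-II: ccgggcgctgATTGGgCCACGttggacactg
Syvn1 ERSE: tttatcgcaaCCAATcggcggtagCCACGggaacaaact
Dnajc3 ERSE: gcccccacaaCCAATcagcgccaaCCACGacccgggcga
Derl3 ERSE: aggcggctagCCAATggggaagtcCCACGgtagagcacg
The elements of Hspa5 (chr2:34772015-34772053), Pdia6 (chr12:17266481-17266519), Syvn1 (chr19:6046522-6046560) and Dnajc3 (chr14:118937817-118937855) were read from the plus strand, as was that of Calr (chr8:84847065-84847103), whose gene is on the minus strand. Those of Creld2 (chr15:88819510-88819548), Derl3 (chr10:75893232-75893270) and Canx (chr11:50325790-50325828) were read from the minus strand. Hsp90b1 is on the minus strand of chromosome 10. It held an ERSE with the gene at chr10:86705628-86705666 and a second against it at chr10:86705523-86705561. The ERSE-II of Herpud1 was read from the plus strand at chr8:94386367-94386397. The 10 ERSE lay between 212 and 26 bases before the gene start. A match to these letters is a description of the sequence and does not show binding in these cells.

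The promoter of Hspa5 is given in full for the 250 bases before its RefSeq start (the files' annotation begins the gene further upstream), at chr2:34771840-34772089 on the plus strand, because BiP is the standard reporter of this response. Capitals mark the TGACGTG and then the 2 ends of the ERSE near the right-hand end.
Hspa5 promoter: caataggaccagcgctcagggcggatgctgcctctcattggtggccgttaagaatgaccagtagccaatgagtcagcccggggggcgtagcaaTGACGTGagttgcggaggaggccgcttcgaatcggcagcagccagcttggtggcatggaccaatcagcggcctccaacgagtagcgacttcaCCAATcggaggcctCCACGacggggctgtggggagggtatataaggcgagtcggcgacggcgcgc

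The libraries held 13307155 to 16140432 counts, of which the 42 genes took 2.19% to 2.49% in dE2 and 1.78% to 2.08% in FL. In the authors' mapping table the share of reads assigned to genes was 75.4% and 75.5% in dE2 replicates 1 and 2, 69.3% in dE2 replicate 3 and 69.3% to 71.5% in FL. The mitochondrial share in the same table was 2.07% to 2.23% in dE2, 2.64% in FL replicate 1 and 1.82% and 1.91% in FL replicates 2 and 3. FL replicate 1 was also the lowest FL library for 9 of the 11 ER genes that rose; the part of these shares in the results was not tested. Levels are given as CPM, a gene's count scaled to a common library size with TMM factors, and an adjusted p is that of edgeR's quasi-likelihood test with Benjamini-Hochberg adjustment. Foxp3 was 436, 403 and 335 CPM in dE2 and 447, 397 and 337 CPM in FL libraries (log2 fold change -0.01 ± 0.14, adjusted p = 0.985); its gene-level count does not check the loss of exon 2. All 8 T cell markers were in the table, summing to 11318 to 13890 CPM in dE2 and 10374 to 11195 CPM in FL, and Cd4 rose (log2 fold change 0.49 ± 0.14, adjusted p = 0.0438). Of 8 B and plasma cell markers 7 were in the table and summed to 25.0 to 45.2 CPM in dE2 and 21.1 to 40.2 CPM in FL. Of these Pou2af1 rose, at 6.56, 7.36 and 5.86 CPM in dE2 and 3.43, 2.91 and 2.90 CPM in FL cells (adjusted p = 0.00456). The 4 CD8 and natural killer markers found of 5 summed to 228 CPM in dE2 replicate 1, 106 to 116 in the other dE2 libraries and 62.9 to 106 in FL. The 2 myeloid markers found of 7 summed to 22.6 CPM in dE2 replicate 1, 8.97 and 9.84 in the others and 4.52 to 7.86 in FL. Of these lists 0 genes in the table were at 0 in all libraries; the other markers were not analysed here. With the replicate number as a block, the marker genes higher in dE2 cells were 5 of 8 for T cells (Cd3e, Cd3d, Cd3g, Cd4 and Lck), 2 of 4 for CD8 and natural killer cells (Cd8b1 and Klrd1), 1 of 7 for B and plasma cells (Pou2af1) and 1 of 2 for myeloid cells (Cd68), and 0 were lower. Over all tested genes 11.5% were higher with this block and 10.1% lower. In bulk RNA a change in the share of a cell type and a change in RNA per cell cannot be told apart, and the part of these markers in the ER results was not tested.

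The comparison asks how RNA levels of these genes differ between Treg with the dE2 and with the FL form of FOXP3. Among the genes that were higher in dE2 cells were BiP, GRP94, calreticulin, protein disulfide isomerase and the sensor gene Atf6; the 11 genes that rose did so by 1.31-fold to 1.59-fold. Xbp1 lay lower in dE2 cells without passing the quasi-likelihood test. Of the 42 genes, 11 rose in dE2 cells, 0 fell and 31 did not pass (edgeR quasi-likelihood test, Benjamini-Hochberg adjusted p under 0.05 over 14632 tested genes). The 11 are 26.2% of the genes, where 3.75% of all tested genes rose and 2.43% fell. The list was chosen with earlier results of these data known, so such shares describe it and are no support for an excess. At an unadjusted p under 0.05, 23 of the 42 were higher and 1 lower, against 11.7% and 10.8% of all tested genes. DESeq2, limma-voom and the likelihood ratio test also called 0 lower at an adjusted p under 0.05. At an unadjusted p under 0.05 each of them had 1 lower. The median log2 fold change was 0.30 over the 42 genes and -0.0043 over all tested genes, and 33 of the 42 were positive against 49.5% of all genes. In 27 genes the 3 dE2 libraries lay wholly above the 3 FL libraries, and in 3 genes wholly below, where 13.6% and 13.5% of all tested genes did so. When the replicate number was taken as a block (the numbers pair the libraries by a check given with the methods), 22 genes rose, all 11 among them, and 1 fell (Xbp1), where 11.5% and 10.1% of all genes did. Leaving out dE2 replicate 2 left 0 genes past the threshold (17 higher and 1 lower at an unadjusted p under 0.05; median log2 fold change 0.25), where 0.849% of all genes rose. Leaving out FL replicate 1, FL replicate 2 or FL replicate 3 left 2, 5 and 5 that rose, where 1.69%, 1.81% and 2.45% of all genes did. Leaving out dE2 replicate 1 left 13, where 5.3% did, and leaving out dE2 replicate 3 left 8, where 3.69% did. Without the TMM composition factor 5 rose (1.8% of all genes) and 1 fell; the median of all genes was then -0.14, and 21.7% of all calls were higher in dE2 (60.7% with the factor). With DESeq2 18 rose, where 4.96% of all genes did.

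**Figure D1:**
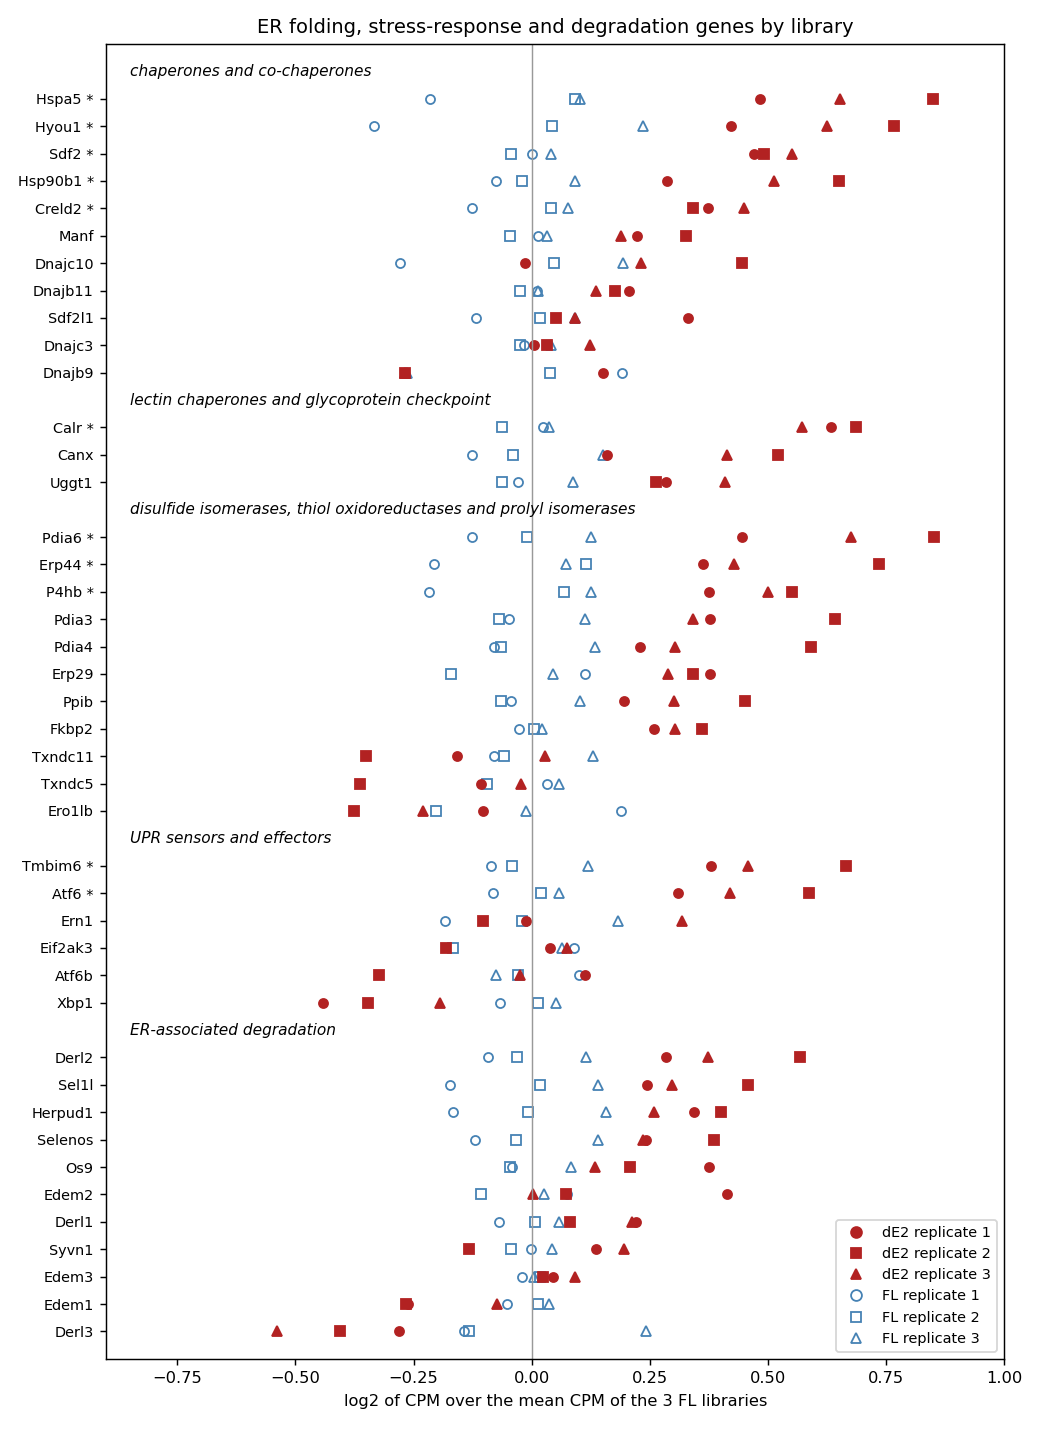
Each row is a gene, grouped by role, and each point a library: filled red symbols are the 3 dE2 libraries and open blue symbols the 3 FL libraries, placed by the log2 of CPM over the FL mean of that gene. An asterisk marks the 11 genes with an adjusted p under 0.05; in 27 genes all red symbols lie right of all blue ones, and in Xbp1, Edem1 and Derl3 all lie left.

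Of the 11 chaperones and co-chaperones, 5 rose, 0 fell and 6 did not pass. Hspa5 encodes BiP, the central Hsp70 of the ER and the brake on all 3 sensors (mm10 chromosome 2, 34771970 to 34777547, plus strand; ENSMUSG00000026864). It stood at 2842, 3662 and 3195 CPM in dE2 replicates 1 to 3, against 1752, 2166 and 2184 CPM in FL replicates 1 to 3. Each dE2 library lay above each FL library, with dE2 replicate 2 highest and FL replicate 1 lowest. The log2 fold change was 0.67 ± 0.15 (SE; 1.59-fold, adjusted p = 0.0112), with Pdia6 the largest of the 42 genes. Further values in parentheses are the log2 fold change with its SE and the adjusted p. Hsp90b1, the ER form of Hsp90, which folds integrins and Toll-like receptors, stood at 1291, 1661 and 1511 CPM in dE2 cells, against 1004, 1043 and 1128 CPM in FL cells. That was a log2 fold change of 0.49 ± 0.14 (adjusted p = 0.0382). Hyou1, the large Hsp70-related exchange factor of BiP, stood at 149, 189 and 171 CPM in dE2 and 88.0, 114 and 131 CPM in FL libraries (0.61 ± 0.14, adjusted p = 0.0146). The dE2 and FL values of Hsp90b1 and Hyou1 did not overlap, and for both FL replicate 1 was the lowest library.

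Sdf2, an ER-resident protein that works with the BiP co-chaperone DNAJB11, stood at 159, 162 and 169 CPM in dE2 cells, against 115, 112 and 118 CPM in FL cells. Both groups were tight, and the log2 fold change was 0.50 ± 0.11 (adjusted p = 0.0109). Its exons overlap those of Supt6 on the other strand, which had 146 CPM in dE2 and 126 CPM in FL cells (log2 fold change 0.20, adjusted p = 0.316). The reads carry no strand (48.4% to 49.8% of coding reads in sense), so reads of the shared bases cannot be told apart. In all, 11 of the 42 genes share exonic bases with a neighbour, 3 of them among those that rose; the neighbours of the other two, Hsp90b1 and Pdia6, had at most 5.83 CPM. Sdf2l1, a relative of Sdf2 known to be induced by ER stress, did not pass, at 180.4, 149 and 153 CPM in dE2 and 132, 145 and 153 CPM in FL cells. There dE2 replicate 1 was highest and the other two dE2 libraries lay within the FL range (0.16 ± 0.12, adjusted p = 0.450). Creld2, a stress-induced ER protein with disulfide isomerase activity, stood at 124, 121 and 130.5 CPM in dE2, against 87.5, 98.3 and 101 CPM in FL libraries (0.39 ± 0.11, adjusted p = 0.0447). Manf, a stress-induced protein that binds BiP, was 303, 325 and 296 CPM in dE2 and 262, 251 and 265 CPM in FL cells. Its groups did not overlap, but the difference did not pass (0.25 ± 0.12, adjusted p = 0.216).

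The J-domain co-chaperones, which bring clients to BiP, did not pass the test. Dnajb11 was 241, 236 and 229 CPM in dE2 and 210.3, 205 and 211 CPM in FL libraries, without overlap (0.17 ± 0.11, adjusted p = 0.390). Dnajc3, which also restrains PERK, was 172, 176 and 187 CPM in dE2 and 169.9, 169 and 177 CPM in FL cells (0.05 ± 0.11, adjusted p = 0.831). It carries an ERSE, as Hspa5 does. Dnajb9 was 11.7, 8.75 and 8.76 CPM in dE2 and 12.0, 10.8 and 8.78 CPM in FL libraries (-0.11 ± 0.18, adjusted p = 0.764). Dnajc10, a disulfide reductase that prepares ERAD clients, showed overlapping groups (0.23 ± 0.14, adjusted p = 0.355). Without the composition factor the sign of Dnajc3 turned to -0.08.

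Each of the 5 chaperone calls was lost without dE2 replicate 2 or FL replicate 1. Without dE2 replicate 2 the adjusted p of Hspa5, Hsp90b1, Hyou1, Sdf2 and Creld2 was 0.11, 0.23, 0.13, 0.0505 and 0.12, and without FL replicate 1 it was 0.075, 0.16, 0.096, 0.0502 and 0.24. Creld2 also missed the threshold when any other single library was left out, at 0.052 without dE2 replicate 1, 0.070 without dE2 replicate 3, 0.11 without FL replicate 2 and 0.091 without FL replicate 3. Hsp90b1 did so without dE2 replicate 3 (0.059), FL replicate 2 (0.12) or FL replicate 3 (0.077), Hyou1 without dE2 replicate 3 (0.057) and Sdf2 without FL replicate 2 (0.060). Without the composition factor Hsp90b1 (0.089) and Creld2 (0.16) lost their calls, as Creld2 did with upper quartile scaling (0.059) and limma-voom (0.055).

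**Figure D2:**
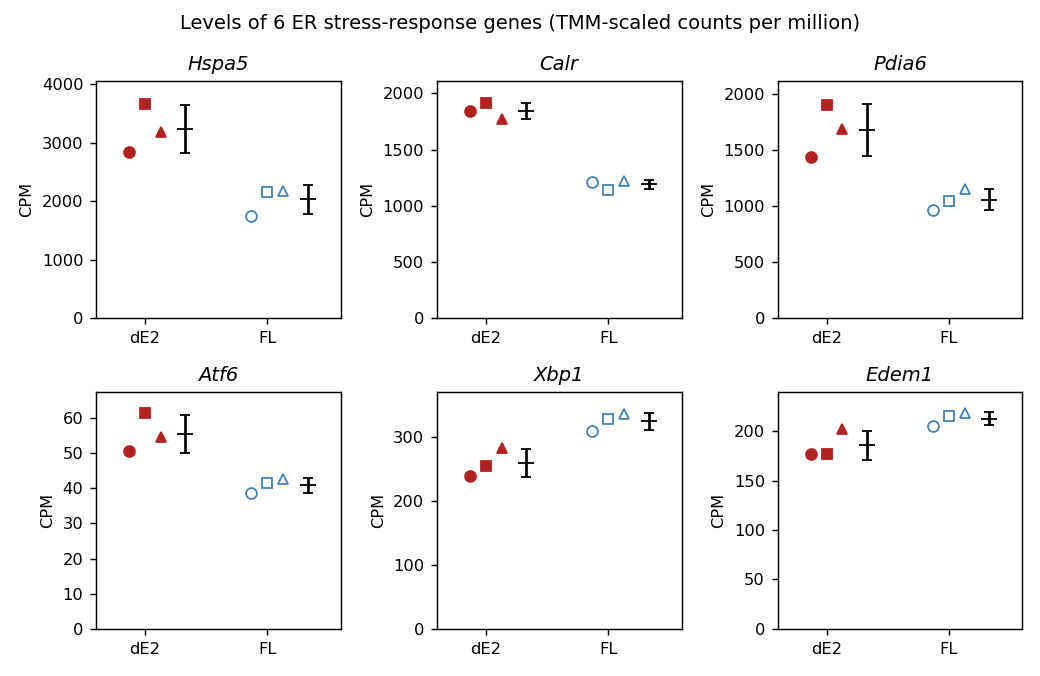
CPM per library (y axis, from 0) of 6 genes in dE2 and FL libraries, with mean and SD (n = 3) beside the points; circles, squares and triangles are replicates 1, 2 and 3. Hspa5, Calr, Pdia6 and Atf6 lie higher in each dE2 library than in any FL library, and Xbp1 and Edem1 lower, the last 2 without passing the test.

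Of the 3 genes of the lectin cycle Calr rose, and Canx and Uggt1 did not pass. Calr encodes calreticulin, the soluble lectin chaperone and main calcium store protein of the ER (mm10 chromosome 8, 84841850 to 84846934, minus strand; ENSMUSG00000003814). It stood at 1845, 1913 and 1768 CPM in dE2 replicates 1 to 3, against 1209, 1139.7 and 1220.3 CPM in FL replicates 1 to 3. The gap between the groups was wider than the spread within either (log2 fold change 0.63 ± 0.13, 1.55-fold, adjusted p = 0.00722, the lowest of the 42). Canx encodes calnexin, the membrane-bound relative of calreticulin, and was 1706, 2193 and 2034 CPM in dE2 and 1400.0, 1487 and 1696 CPM in FL cells. Its lowest dE2 library was close to the highest FL library, and the difference did not pass (0.37 ± 0.14, adjusted p = 0.122). Uggt1, which puts a glucose back on unfolded glycoproteins so that they bind calnexin again, was 269.6, 266 and 294 CPM in dE2 and 217, 212 and 235 CPM in FL libraries (0.32 ± 0.12, adjusted p = 0.108). With the replicate block Canx (adjusted p = 0.0053) and Uggt1 (0.0078) passed, as they did with DESeq2 (0.044 and 0.044). The Calr call was lost without dE2 replicate 2 (0.056).

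Of the 11 disulfide isomerases, thiol oxidoreductases and prolyl isomerases, 3 rose and 8 did not pass. Pdia6 encodes an ER disulfide isomerase of the thioredoxin family (mm10 chromosome 12, 17266545 to 17284770, plus strand; ENSMUSG00000020571). It stood at 1437, 1904 and 1686 CPM in dE2 cells, against 967, 1049 and 1151 CPM in FL cells (0.67 ± 0.14, 1.59-fold, adjusted p = 0.00861). P4hb, protein disulfide isomerase itself, stood at 1106, 1249 and 1206 CPM in dE2 and 733, 894 and 929.9 CPM in FL libraries (0.48 ± 0.14, adjusted p = 0.0408). Erp44, which retrieves unassembled oxidoreductases and cargo through thiol bonds, stood at 147, 191 and 154 CPM in dE2 and 99.4, 124 and 121 CPM in FL libraries (0.52 ± 0.13, adjusted p = 0.0218). In all 3 genes the groups were separate and dE2 replicate 2 was the highest library.

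Pdia3, the partner enzyme of calnexin and calreticulin, was the second most abundant of the 42 genes per length and missed the threshold, at 2420.3, 2909.9 and 2362 CPM in dE2 and 1802, 1775 and 2014 CPM in FL cells (0.46 ± 0.14, adjusted p = 0.0561). Pdia4 (0.38 ± 0.14, adjusted p = 0.103), the redox-inactive Erp29 (0.34 ± 0.12, 0.0965) and the prolyl isomerases Ppib (0.32 ± 0.13, 0.142) and Fkbp2 (0.31 ± 0.12, 0.115) also had separate groups, each higher in dE2, without passing. Erp29 shares exonic bases with Naa25, which rose (125 CPM in dE2 and 91.4 CPM in FL cells). With the replicate block these 5 passed, at adjusted p of 5.3e-04 for Pdia3, 0.0034 for Pdia4, 0.0042 for Erp29, 0.013 for Ppib and 0.011 for Fkbp2. The remaining oxidoreductases lay on the other side of 0, with overlapping groups. They are Txndc5 (-0.16 ± 0.12, adjusted p = 0.475), Txndc11 (-0.15 ± 0.13, 0.530) and the oxidase gene Ero1lb (-0.23 ± 0.17, 0.452), the last at 10.8, 8.91 and 9.87 CPM in dE2 and 13.2, 10.1 and 11.5 CPM in FL libraries.

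Without dE2 replicate 2 the calls of Pdia6, P4hb and Erp44 were lost, at adjusted p of 0.094, 0.20 and 0.17. P4hb also lost its call without dE2 replicate 3 (0.061), FL replicate 1 (0.24), FL replicate 2 (0.091) or FL replicate 3 (0.068). Erp44 lost its call without FL replicate 1 (0.14) or FL replicate 3 (0.053). Without the composition factor P4hb (0.10) and Erp44 (0.062) missed the threshold. Pdia3 passed without dE2 replicate 1 (0.039) or dE2 replicate 3 (0.048), with DESeq2 (0.0047) and with the likelihood ratio test (0.017). DESeq2 also called Pdia4 (0.035), Erp29 (0.048) and Fkbp2 (0.039).

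Of the 6 sensor and effector genes, Atf6 and Tmbim6 rose, 0 fell and 4 did not pass. Atf6 encodes the sensor that is cut in the Golgi to drive chaperone genes (mm10 chromosome 1, 170704674 to 170867771, minus strand; ENSMUSG00000026663). It stood at 50.5, 61.3 and 54.6 CPM in dE2 cells, against 38.5, 41.3 and 42.5 CPM in FL cells (0.44 ± 0.12, 1.36-fold, adjusted p = 0.0314). Its paralog Atf6b was 34.5, 25.5 and 31.3 CPM in dE2 and 34.1, 31.2 and 30.2 CPM in FL libraries (-0.07 ± 0.13, adjusted p = 0.819). Eif2ak3, which encodes PERK, was 32.6, 28.0 and 33.4 CPM in dE2 and 33.7, 28.3 and 33.1 CPM in FL libraries (-0.02 ± 0.13, adjusted p = 0.958). Ern1, which encodes IRE1, was 9.17, 8.60 and 11.5 CPM in dE2 and 8.13, 9.10 and 10.5 CPM in FL libraries (0.08 ± 0.18, adjusted p = 0.838). The dE2 and FL ranges of these 3 genes lay over each other. That Atf6 differed more than the other sensors was not tested.

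Xbp1, the target of IRE1, was 239, 255 and 283 CPM in dE2 replicates 1 to 3, against 309, 327 and 336 CPM in FL replicates 1 to 3. Each dE2 library lay below each FL library, in the direction opposite to the genes that rose. The log2 fold change of -0.32 ± 0.12 did not pass (adjusted p = 0.112). It passed with the replicate block (adjusted p = 0.0069) and without the composition factor (-0.46, adjusted p = 0.026), where the median of all genes also moved to -0.14. Gene-level counts sum the spliced and unspliced Xbp1 forms, so they do not show how active IRE1 was. Tmbim6, an ER membrane protein known to restrain IRE1 and cell death, was the most abundant of the 42 genes per length. It lies on mm10 chromosome 15, 99392882 to 99410049, plus strand (ENSMUSG00000023010). It stood at 3508, 4278 and 3701 CPM in dE2 cells, against 2539, 2619 and 2931 CPM in FL cells, and rose (0.51 ± 0.14, adjusted p = 0.0404). The Atf6 and Tmbim6 calls were lost without dE2 replicate 2 (0.17 and 0.24), FL replicate 1 (0.15 and 0.16), FL replicate 2 (0.086 and 0.14) or FL replicate 3 (0.075 and 0.071). They were also lost without the composition factor (0.10 and 0.085).

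Of the 11 ERAD genes 0 rose, 0 fell and 11 did not pass the quasi-likelihood test, which is close to the 3.75% of all tested genes that rose. At an unadjusted p under 0.05, 4 were higher and 0 lower, where 11.7% and 10.8% of all tested genes were. DESeq2 called 1 higher, the likelihood ratio test 1 and limma-voom 0, where 4.96%, 4.57% and 2.93% of all genes rose. The 1 gene was Derl2 with DESeq2 and with the likelihood ratio test. In all, 7 had dE2 libraries wholly above the FL libraries and 2 wholly below, where 13.6% and 13.5% of all tested genes did. The closest was Derl2, a derlin of the export channel, at 311, 378 and 330.5 CPM in dE2 and 239, 249.8 and 277 CPM in FL cells (0.41 ± 0.12, adjusted p = 0.0515). Sel1l, the adaptor of the ligase complex, was 179.6, 208 and 186 CPM in dE2 and 135, 154 and 167 CPM in FL cells (0.34 ± 0.12, adjusted p = 0.103). Its partner ligase Syvn1 was 55.0, 45.7 and 57.3 CPM in dE2 and 50.0, 48.6 and 51.6 CPM in FL cells, with overlapping groups (0.07 ± 0.12, adjusted p = 0.769). Herpud1, the scaffold of the complex and the gene with the ERSE-II, was 344, 358 and 324 CPM in dE2 and 241, 269.7 and 302 CPM in FL libraries (0.34 ± 0.12, adjusted p = 0.110). Selenos, which recruits the VCP ATPase to the membrane, did not pass (0.29 ± 0.12, adjusted p = 0.161), nor did the lectin gene Os9 (0.24 ± 0.12, 0.225). With the replicate block Derl2 (adjusted p = 5.1e-04), Sel1l (0.0042), Herpud1 (0.0051) and Selenos (0.018) passed, all higher in dE2. They are 36.4% of the ERAD genes, where 11.5% of all genes rose with the block. Derl2 also passed without dE2 replicate 1 (0.029), with DESeq2 (0.013) and with the likelihood ratio test (0.030).

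The mannosidase-like genes that mark glycoproteins for ERAD did not pass the test. Edem1 was 177, 177 and 202 CPM in dE2, against 205, 215 and 218 CPM in FL libraries, without overlap (-0.20 ± 0.12, adjusted p = 0.332). Edem2 (0.17 ± 0.13, adjusted p = 0.441) and Edem3 (0.05 ± 0.11, 0.831) did not pass. Derl1 did not pass either, with each dE2 library above each FL library (0.17 ± 0.11, adjusted p = 0.395). Derl3, a derlin known from secretory cells, was scarce, at 3.55, 3.25 and 2.97 CPM in dE2 and 3.90, 3.93 and 5.10 CPM in FL cells (-0.40 ± 0.23, adjusted p = 0.317). Derl3 and Syvn1 carry an ERSE and Edem1 does not. Without the composition factor the signs of Edem3 and Syvn1 turned to -0.08 and -0.06.

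Set beside the promoters, 5 of the 9 genes with an ERSE rose (Hspa5, Hsp90b1, Creld2, Calr and Pdia6), against 3 of the 26 matched genes without one (Sdf2, P4hb and Erp44). Of the 7 genes with no promoter entry 3 rose. Over all tested genes 3.75% rose. With the replicate block 6 of the 9 with an ERSE, 12 of the 26 without and 4 of the 7 with no entry rose. Over all tested genes 11.5% rose with the block. A difference between these sets was not tested. The median log2 fold changes were 0.39 with an ERSE and 0.24 without. The genes with an ERSE were also the more abundant, with a median FL level of 262.6 RPKM (CPM per kilobase of exon) against 46.8 RPKM. The part of level in the difference between the 2 sets was not tested, and the split was made with the values of these genes known. Canx, with an ERSE, passed only with the block, with DESeq2 and without dE2 replicate 1 (0.046). Dnajc3, Syvn1 and Derl3 passed under none of the settings tried.

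**Figure D3:**
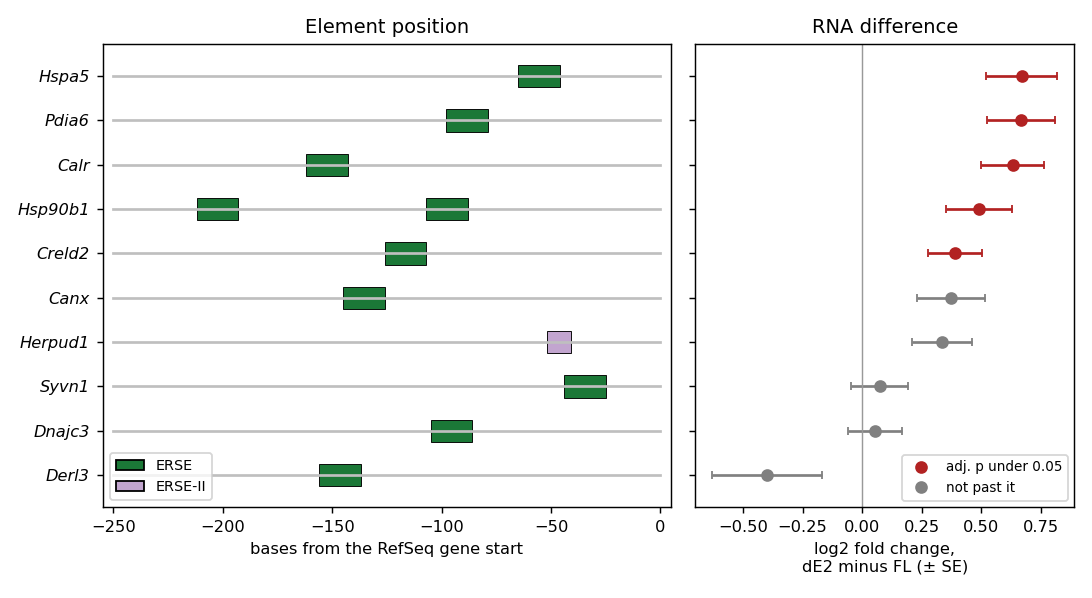
Left, position of the ERSE (green) and ERSE-II (violet) in the 250 bases before the start of the 10 genes that hold one; right, log2 fold change of the same genes, dE2 minus FL, with its SE (red, adjusted p under 0.05). Hspa5, Pdia6, Calr, Hsp90b1 and Creld2 passed the test, and Syvn1, Dnajc3 and Derl3 carry the element with log2 fold changes of 0.07, 0.05 and -0.40.

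Per length, FL levels of the 42 genes ran from 1.13 RPKM for Ern1 to 708 RPKM for Tmbim6, followed by Pdia3 (594 RPKM), Hspa5 (481 RPKM) and Calr (413 RPKM). Of the 10 most abundant genes 6 rose, of the 10 scarcest 1 (Atf6), and of the other 22, 4. Over all tested genes of any level 3.75% rose. A difference between these levels was not tested. Across the 42 genes the FL level and the log2 fold change had a Spearman correlation of 0.596, against 0.198 across the 14632 tested genes; all points share the same 6 libraries. Tmbim6, Hspa5, Pdia3, Canx, Calr, Hsp90b1 and Pdia6 made up 66.7% of the summed CPM of the 42 genes in dE2 and 62.6% in FL cells, and 77.8% of the difference between the groups.

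**Figure D4:**
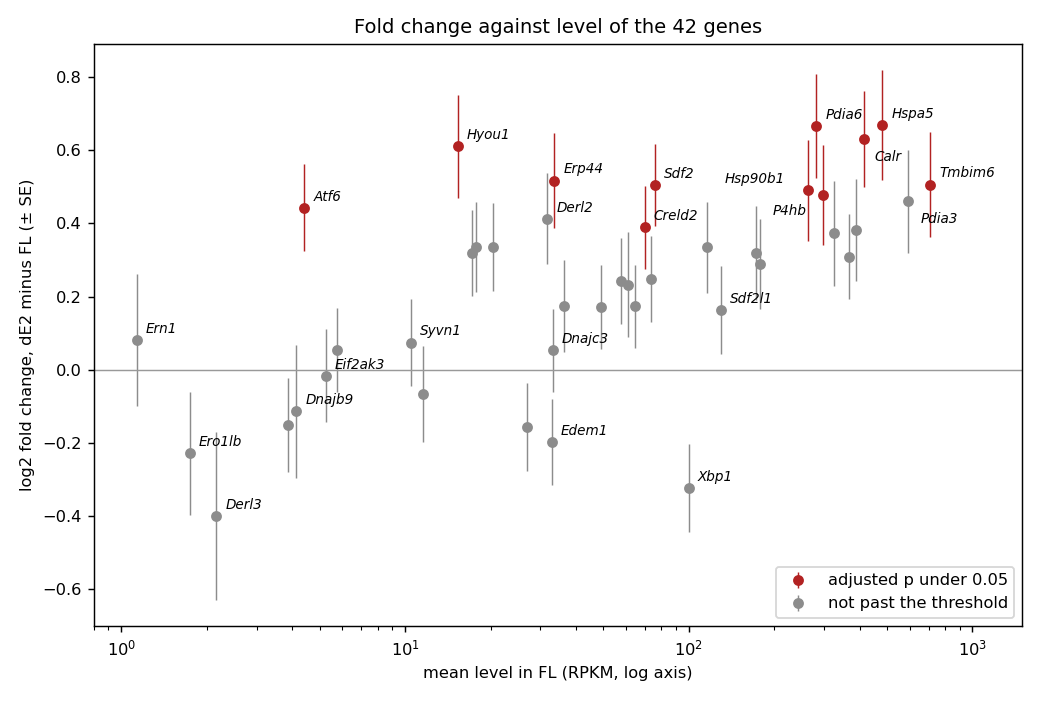
Log2 fold change, dE2 minus FL, with its SE (y axis) against the mean FL level in RPKM (x axis, log scale) for the 42 genes; red points passed an adjusted p of 0.05. The 10 most abundant genes all lie above 0, while Xbp1 lies at -0.32 with a level of 99.8 RPKM.

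Summed over the 42 genes, 22972, 27267 and 24493 CPM were counted in dE2 replicates 1 to 3, against 17097, 18021 and 19616 CPM in FL replicates 1 to 3, a ratio of means of 1.37. The sums of the 5 roles were each higher in dE2, but that of the sensors and effectors was so through Tmbim6. Without Tmbim6 the other 5 sensor and effector genes summed to 365, 378 and 414 CPM in dE2 replicates 1 to 3. In FL replicates 1 to 3 they summed to 424, 437 and 452 CPM, so the sums were wholly lower in dE2 (ratio 0.88). Xbp1 alone made up 74.0% of the mean FL sum of these 5 genes, so their sum mostly follows Xbp1. The log2 fold changes of the others were 0.44 for Atf6, 0.08 for Ern1, -0.02 for Eif2ak3 and -0.07 for Atf6b. The ratio was 1.42 for chaperones and co-chaperones, 1.39 for lectin chaperones and Uggt1, 1.37 for isomerases, 1.34 for sensors and effectors with Tmbim6, and 1.17 for ERAD. By gene, the median log2 fold changes of these roles were 0.25, 0.37, 0.34, 0.03 and 0.17, so the roles ranked otherwise than by sums. Library by library, the median gene of the 42 lay 0.25, 0.34 and 0.28 above the FL mean (log2) in dE2 replicates 1, 2 and 3. In FL replicates 1, 2 and 3 it lay at -0.10, -0.04 and 0.12 against the mean of the other two FL libraries. Within FL, replicate 1 was low and replicate 3 high. For 10 of the 11 genes that rose, FL replicate 3 was the highest FL library, and for 9, dE2 replicate 2 the highest dE2 library. The median coefficient of variation was 9.41% in dE2 and 7.32% in FL for these genes, and 14.1% and 10.4% over all tested genes.

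**Figure D5:**
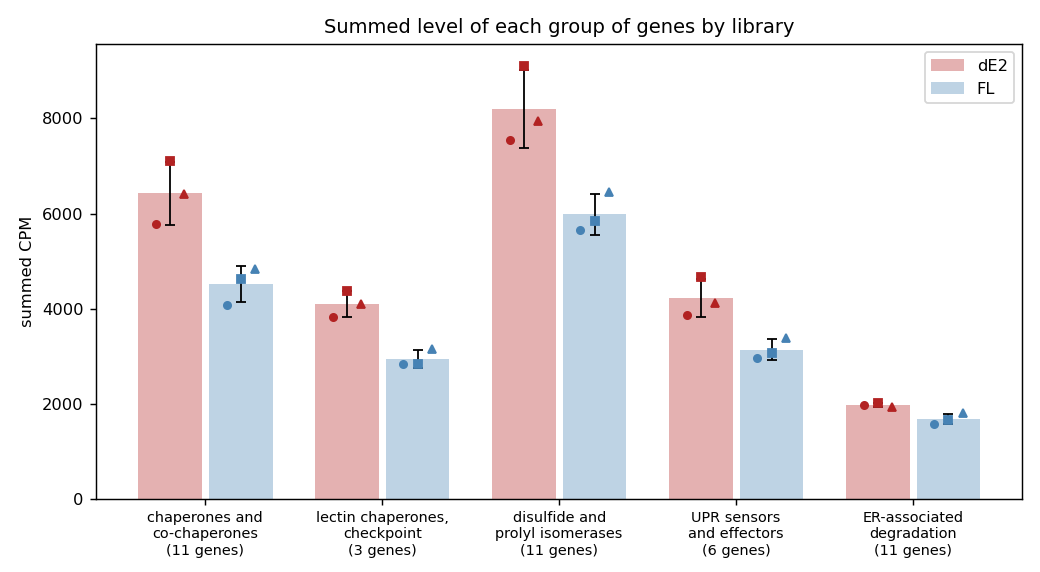
Summed CPM of the genes of each role (y axis, from 0); bars are means with SD (n = 3), red for dE2 and blue for FL, and circles, squares and triangles are replicates 1, 2 and 3. The 3 dE2 sums lie above the 3 FL sums in each role, with ERAD at 1923 to 2021 CPM in dE2 and 1579 to 1796 CPM in FL. Without Tmbim6 the sensor and effector sums lie lower in dE2, at 365 to 414 CPM against 424 to 452 CPM in FL. Xbp1 alone makes up 74.0% of the mean FL sum without Tmbim6.

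Of 86 further genes of the same pathways found in the table, 12 rose, 1 fell and 73 did not pass. That is 14% higher beside the 3.75% of all genes, and these lists too were chosen with earlier results known. Other folding factors held 8 of the 12 (of 26 tested). The 5 of these with the smallest p were the membrane thioredoxin genes Tmx1 (log2 fold change 0.73 ± 0.14, adjusted p = 0.00429) and Tmx2 (0.56 ± 0.13, 0.0130), the calcium-binding protein gene Calu (0.68 ± 0.13, 0.00502), the receptor chaperone gene Mesd (0.44 ± 0.11, 0.0255) and the glucosidase II subunit gene Ganab (0.46 ± 0.12, 0.0316). Of 35 further ERAD genes 4 rose, namely Erlin2 (0.68 ± 0.13, adjusted p = 0.00385), Faf2 (0.54 ± 0.13, 0.0184), Tmem129 (0.47 ± 0.12, 0.0259) and Man1b1 (0.47 ± 0.12, 0.0303). Bag6, a cytosolic holdase, fell in dE2 cells (log2 fold change -0.55 ± 0.14, adjusted p = 0.0275). None of the 67 further genes matched to a promoter held an ERSE.

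In the quasi-likelihood test 3.75% of all tested genes rose and 2.43% fell, and 11.7% and 10.8% did at an unadjusted p under 0.05. With the block 11.5% rose and 10.1% fell. DESeq2, limma-voom and the likelihood ratio test called 4.96%, 2.93% and 4.57% of all genes higher. Of the 11 PERK and ATF4 output genes 0 passed the quasi-likelihood test (1 at an unadjusted p under 0.05, 0 by DESeq2, 0 by limma-voom, 1 by the likelihood ratio test and 2 with the block). The 1 gene was Atf3, a stress-induced transcription factor, at 6.96, 7.59 and 8.90 CPM in dE2 and 2.82, 6.37 and 4.601 CPM in FL cells, without overlap (0.76 ± 0.24, adjusted p = 0.0686). It passed with the block (adjusted p = 4.6e-04), with the likelihood ratio test (0.046) and without FL replicate 2 (0.021). Atf4, the translated target of PERK signalling, was 133, 128 and 122 CPM in dE2 and 88.6, 119.7 and 120.2 CPM in FL cells (log2 fold change 0.22 ± 0.13, adjusted p = 0.312). Ddit3, which encodes the stress-death factor CHOP, was 26.8, 21.8 and 31.3 CPM in dE2 and 25.0, 27.6 and 31.9 CPM in FL cells (-0.08 ± 0.14, adjusted p = 0.805). Of the 14 UPR processing and signalling genes 0 passed (3 higher and 1 lower at an unadjusted p under 0.05; 0 by DESeq2, limma-voom and the likelihood ratio test). With the block 3 of them rose and 1 fell. For both lists 0 passing genes is near the 3.75% of all genes and does not show these branches to be unchanged. Mbtps1, the protease that cuts ATF6, was 266, 267 and 264 CPM in dE2 and 199.7, 198 and 241 CPM in FL cells (log2 fold change 0.32 ± 0.12, adjusted p = 0.118, 0.0072 with the block). Atf4, Ddit3 and Mbtps1 are named for their roles, and Atf3 for its values, all with the values known. Over the 86 genes, 25 rose and 3 fell with the block, where 11.5% and 10.1% of all genes did. Without the composition factor 4 rose (1.8% of all genes) and 2 fell. Without dE2 replicate 2, 0 rose (0.849% of all genes) and 0 fell, with 18 and 1 at an unadjusted p under 0.05. Leaving out FL replicate 1, 2 or 3 left 3, 4 and 6 that rose, where 1.69%, 1.81% and 2.45% of all genes did. Leaving out dE2 replicate 1 or 3 left 15 and 11 that rose, where 5.3% and 3.69% of all genes did. Bag6 lost its call without dE2 replicate 2 (0.16), dE2 replicate 3 (0.067), FL replicate 1 (0.10), FL replicate 2 (0.058) or FL replicate 3 (0.052).

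The authors' deposited table of enriched terms for genes higher in dE2 held 14 terms naming the ER, chaperones or protein folding, 5 of them with the authors' FDR under 0.05; their table for lower genes held 0. Their term for the ER lumen counted 13 of 299 genes at 6.61-fold enrichment (FDR 6.43e-06), with Hspa5, Hyou1, Calr and Pdia6 from the genes described here. Their term for the response to ER stress counted 10 of 273 genes at 1.90-fold with an FDR of 0.798. The authors' input was their genes past 1.5-fold and an FDR under 0.05, per the file headers. These terms come from the same libraries and are no independent support.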

How the data were processed

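The members and gene lists were chosen with earlier results of these data known. The authors deposited raw counts per gene and library for 14777 genes, with log2 CPM values and the log2 fold changes and p-values of their own comparison, per the file headers; tests here used the counts alone. Per the submitters' processing notes, the build was mm10 and the tools included STAR 2.5, featureCounts (Subread 1.5.1) and edgeR 3.20.8; settings are not stated there. The authors' enrichment tables list a ratio (fold enrichment) and its p-value for each term, per the file headers, and name no tool.

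Samples were grouped by genotype in the labels. Counts were filtered with filterByExpr (14632 genes tested, 145 left out), scaled with TMM and tested two-sided with edgeR 4.0.16 (R 4.3.3; robust glmQLFit, glmQLFTest, group as the only term), with Benjamini-Hochberg adjustment over all tested genes and a threshold of 0.05. Every adjusted p in the text comes from this test unless another setting is named. Fold changes are dE2 over FL, and SE is the size of the log2 fold change over the square root of F. CPM uses TMM-scaled totals, and RPKM also the deposited gene length. Log2 deviations of single libraries used a prior count of 2. No permutation test was run, since with 3 libraries a side its exact p cannot go below 0.1. The procedure was tested on simulated counts.

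Libraries with the same replicate number correlated at 0.392, 0.207 and 0.185 in their deviations from the group means, and those with different numbers at -0.287 to 0.0972. Deviations from a group mean cancel within the group, so the negative values follow in part from the positive ones. As each same-number pair was over 0.1, the numbers were taken to pair them. This is inferred from the data: no label states what libraries of one number have in common. The alternatives were this block, scaling by DESeq2 size factors, by upper quartiles or without a composition factor, testing by DESeq2 1.42.0, by limma-voom (limma 3.58.1) or by edgeR's likelihood ratio, other filters, a stricter threshold and leaving out each library.

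Named genes were all members that passed, those whose groups did not overlap, those whose call changed with the block or scaling, 13 fixed members, and up to 5 passing genes of each further list. Other members are named with their values known. Promoter sequences are from RefSeq (GRCm38.p6), searched on both strands in the 250 bases before the start.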

Additional observations from a re-analysis of the deposited data

How the results depend on the processing

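With the replicate block, 1678 of all genes rose and 1471 fell in dE2, with 22 and 1 of the 42 ER genes and 25 and 3 of the further pathway genes. Without the composition factor the counts were 264 and 954 of all genes, 5 and 1 of the ER genes and 4 and 2 of the further genes. The median log2 fold change of the ER genes was then 0.16, and its distance to the median of all genes stayed at 0.30. At an adjusted p under 0.01, 184 genes rose and 57 fell, with 2 ER genes and 3 further genes higher and 0 further genes lower. DESeq2 called 18 ER genes and 726 of all genes higher. Limma-voom called 429 of all genes higher and 227 lower. Leaving out 1 library at a time gave 125 to 780 genes higher and 51 to 587 lower, 0 to 13 ER genes higher, 0 to 15 further genes higher and 0 to 2 lower, with a median of 0.25 to 0.35 for the ER genes. The sign turned without the composition factor for Dnajc3 (-0.080), Ern1 (-0.049), Edem3 (-0.079) and Syvn1 (-0.057). Leaving out 1 library at a time, the log2 fold change ranged over 0 for Ern1 (-0.060 to 0.18), Atf6b (-0.16 to 0.042), Eif2ak3 (-0.094 to 0.054), Ddit3 (-0.21 to 0.044) and Foxp3 (-0.11 to 0.094). These genes passed the test under no setting run. Derl3 could not be tested with a minimum of 5 CPM in 3 libraries. The cause of these changes was not tested. With 3 libraries a group, 31 ER genes that did not pass are not shown to be equal between the groups, and the scarce ones are measured least precisely.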
